A study of Paraphaeosphaeria sporulosa with 23 samples.

Results

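In cultures of Paraphaeosphaeria sporulosa, 114 genes had much lower transcript levels after 1 day with selenite than in controls of the same day. These genes were within 2-fold of the controls after 6 days, on group means to which 0.5 was added. They were chosen by measured values from 14844 genes with locus tags (15164 genes in all), by a rule on the deposited CPM values, which are reads scaled to a common library total. Each library was divided by its median ratio to the gene geometric means, and the result is called scaled CPM here. A gene was taken when the log2 of its group mean plus 0.5 was at least 2.5 lower with selenite than without at day 1, and differed by at most 1 in either direction at day 6. The label of a gene lowered by selenite at day 1 only therefore rests on these limits, and it describes levels relative to controls of the same day. Paraphaeosphaeria sporulosa is a filamentous ascomycete fungus, and all libraries came from strain AP3s5-JAC2a, sampled as whole organism.

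The study asked how transcript levels respond to sodium selenite over time. A preculture of 14 days was blended and grown on for 18 days in the dark, without agitation, on a medium with yeast extract, and 0.1 mM sodium selenite was added at day 0. The 23 libraries were 3 controls without selenite at day 0, 5 selenite and 6 control libraries at day 1, and 4 selenite and 5 control libraries at day 6. The labels put all of them in 1 batch and leave it unsaid whether each replicate had a flask of its own. The p-values below therefore measure library-to-library spread, which may be partly technical. Selenite was present in still cultures that were already 18 days old, so the controls of days 1 and 6 also differ from day 0 in age. In RNA from whole cultures, fewer cells of a kind that uses a gene and less of its RNA per cell cannot be told apart.

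Selenite is an oxyanion of selenium(IV). It reacts with thiols such as glutathione, and this chemistry yields reactive oxygen species, which is a known basis of its toxicity. Many fungi reduce selenite to red particles of elemental selenium or to volatile methylated forms, and in yeast it enters cells through carriers of other small anions. The deposited files and the RefSeq gene table give the 114 genes locus tags only. No gene name, product or role is therefore stated for any of them, and they are described by level, timing and position.

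Libraries held 23282564 to 32681888 reads in genes, and the factors of the scaling ranged from 0.511 to 1.609. All 114 genes passed the filter on low values that kept 13676 genes. Several libraries stood apart from their group and touch the results below. Control day 6 replicates 1 and 3 both lay below the other 3 controls of that day for 63 of the 114 genes, against 19.3% of the genes kept. Control day 0 replicate 1 lay at least 2-fold below both other day 0 controls for 31, against 14.9%, and selenite day 6 replicate 1 was the lowest of its 4 libraries for 68, against 29.0%.

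The day 1 difference was set by the choice of the genes, and its values are a description. Its median over the 114 genes was −2.83 on the log2 scale (quartiles −3.09 and −2.62, range −4.85 to −2.5), and over the kept genes it was 0.13. In 41 genes it was −3 or lower and in 6 it was −4 or lower, while 46 genes lay within 0.25 of the threshold. The limma fit across all genes called all 114 lower, with 27.6% of kept genes called lower in that comparison, and in 113 no selenite library reached any control library, against 17.9% of kept genes. Nothing is read from these counts, since the same comparison chose the genes.

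In all, 378 genes with locus tags lay at or below the day 1 threshold. Of these, 257 were more than 2-fold lower with selenite at day 6 also and 7 were more than 2-fold higher, so the 114 are the part whose levels came within 2-fold of the controls. At day 6 the median difference was −0.35, with 80 genes below 0 and 34 above, against a median of 0.07 over the kept genes. The limma fit still called 16 of the 114 at day 6, against 48% of kept genes. Of these 14 were lower and 2 higher, against 22.6% and 25.4%. The selenite and control libraries of day 6 did not overlap for 6 of the 114, against 38.2% of kept genes, and the day 6 window again set these counts. The members just inside the day 1 threshold were CC84DRAFT_67936 at −2.52, CC84DRAFT_1085398 at −2.51 and CC84DRAFT_1256070 at −2.5026. Just outside it lay CC84DRAFT_1161361 at −2.4996, CC84DRAFT_1186060 at −2.497 and CC84DRAFT_1221921 at −2.49. At the lower limit of the day 6 window, CC84DRAFT_1168772, CC84DRAFT_1163420 and CC84DRAFT_1206703 lay inside at −0.95, −0.95 and −0.98, and CC84DRAFT_1100482, CC84DRAFT_1177547 and CC84DRAFT_1132635 lay outside at −1.004, −1.02 and −1.03. At the upper limit CC84DRAFT_1080175, CC84DRAFT_1193470 and CC84DRAFT_962084 lay inside at 0.80, 0.96 and 0.98, and the nearest genes outside were CC84DRAFT_1062954, CC84DRAFT_884580 and CC84DRAFT_1177943 at 1.27, 1.33 and 1.596.

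**Figure D1:**
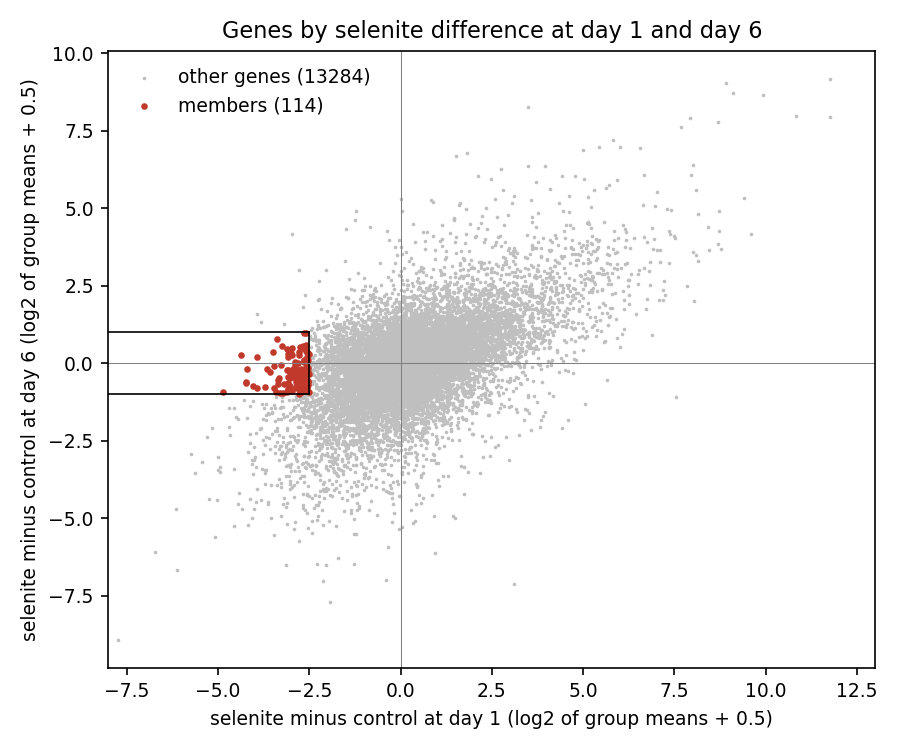
Each point is a gene with a locus tag that passed the filter, placed by its selenite minus control difference of log2 group means at day 1 (horizontal axis) and at day 6 (vertical axis), and the lines mark the limits of the rule. The 114 chosen genes (red) fill the box from −4.85 to −2.5 at day 1 and from −0.98 to 0.98 at day 6, with more of them in the lower part of the box, and other genes are grey.

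The 114 genes were well transcribed in control cultures and took a large share of the day 1 control reads. Their median level was 55.6 scaled CPM in day 0 controls, 9.5 in selenite and 83.8 in control libraries of day 1, and 32.3 in selenite and 31.7 in control libraries of day 6. The medians over the kept genes were 9.32 to 11.9 in all 5 groups. At day 1 the 114 genes together held 0.478% ± 0.0649 of reads with selenite (SD, n = 5), against 5.84% ± 0.816 without it (n = 6). At day 6 they held 0.988% ± 0.206 of selenite reads (n = 4) and 1.25% ± 0.38 of control reads (n = 5). Day 0 controls gave them 2.59% ± 1.05 (n = 3). The share in day 1 controls exceeded that in every other group, and the shares at day 6 lay below the day 0 mean in both conditions. Leaving out the 2 genes with most reads, CC84DRAFT_1214642 and CC84DRAFT_1103819, the day 1 shares were 0.151% ± 0.019 with selenite and 1.82% ± 0.106 in controls. Day 0 controls then had 2.0% ± 0.627, from 1.28% to 2.4%. By summed share of reads, the excess over day 0 in day 1 controls thus lay in those 2 genes. Gene by gene on scaled CPM, the median log2 difference of day 1 controls from day 0 was 0.73. Some of the genes had no reads in single selenite libraries of day 1, between 6 and 13 of the 114 per library, and none was without reads in any control of day 1. The rule used the day 1 groups and favours genes that are high in day 1 controls. The day 1 levels, shares and read counts given here are therefore a description.

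CC84DRAFT_1214642, a gene of 3 exons at 825524 to 827971 of scaffold NW_017253362.1 (plus strand), was second in rank by scaled CPM among all genes in day 1 controls and rank 58 in selenite libraries of that day. It held 0.203% ± 0.0567 of all reads with selenite (SD, n = 5) and 2.7% ± 0.58 without it (n = 6). Its scaled CPM were 153, 1008 and 1030.3 in the day 0 controls. With selenite at day 1 CC84DRAFT_1214642 had 5399, 3472, 2239, 2611 and 4089 scaled CPM, against 22765, 29520.5 and 39363 (lowest, median and highest of 6) in controls. On both sides of the comparison the gene was above its day 0 level, by 2.28 (selenite) and 5.39 (control) on the log2 scale, and the groups of day 1 did not overlap. At day 6 the values were 415, 268, 823 and 1074 in selenite and 68.6, 565, 263, 1628 and 1254 in control libraries, in one range with each other and with day 0. Per kilobase of exon, the day 1 levels were 1534 scaled CPM with selenite and 13218 without.

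CC84DRAFT_1103819, of 3 exons at 240169 to 242140 of scaffold NW_017253373.1 (minus strand), was rank 88 with selenite and rank 6 in controls at day 1. Selenite libraries had 2637, 2074, 1731, 1843 and 2447 scaled CPM of it, against 10239, 15286 and 18069.5 (lowest, median and highest) in controls. Day 0 controls had 454, 6086 and 6901, so replicate 1 of day 0 was far below the other two libraries and below the selenite libraries of day 1. Both groups of day 6 were lower than the groups of day 1, with 477, 341, 459 and 339.5 in selenite and 141, 463, 420.2, 894 and 654 in control libraries of CC84DRAFT_1103819. This gene thus reached the common level of day 6 by a fall in both conditions, of −2.41 with selenite and −4.85 without on the log2 scale between days 1 and 6.

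CC84DRAFT_1088643, of 2 exons at 2940411 to 2941594 of scaffold NW_017253363.1 (minus strand), came next among the 114 in day 1 controls. Its scaled CPM at day 1 were 194, 208, 138, 156 and 141 with selenite, against 1731, 2213 and 2634 (lowest, median and highest) in controls. Levels of day 1 controls resembled those of day 0 replicates 2 and 3, where the 3 controls had 165, 1937 and 2281. By day 6 the gene had 134, 118, 68.1 and 51.4 in selenite and 18.5, 201, 244, 240.4 and 89.4 in control libraries. All 5 control libraries of day 6 lay below every control of day 1, and replicate 1 was the lowest of them.

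The next genes by level in day 1 controls were CC84DRAFT_1164317, CC84DRAFT_580563, CC84DRAFT_1180694, CC84DRAFT_1159970 and CC84DRAFT_1222463. CC84DRAFT_1164317, of 4 exons at 1476093 to 1477010 of scaffold NW_017253364.1 (plus strand), had 282, 225, 288, 296 and 200.1 scaled CPM in selenite libraries of day 1, against 929, 1673 and 1924 in controls (lowest, median and highest). Selenite day 6 libraries had 684, 609, 339 and 719 and controls 601, 663, 795, 653 and 455, with 479, 1084 and 1475 at day 0. For CC84DRAFT_1164317 the selenite libraries of day 1 were the low ones, below every library of the other groups. CC84DRAFT_1180694, with 8 exons at 1184629 to 1189008 of scaffold NW_017253371.1 (minus strand), showed 118, 67.1, 115, 99.6 and 57.8 with selenite at day 1 and 598, 988 and 1245 in controls (lowest, median and highest). Its selenite libraries of day 6 had 155 to 241 scaled CPM, within the wide span of the controls of that day, 24.6 to 731, where replicates 1 and 3 were at the low end. CC84DRAFT_1159970, of 2 exons at 4164914 to 4166973 of scaffold NW_017253360.1 (minus strand), and CC84DRAFT_1222463, of 3 exons at 724260 to 725573 of scaffold NW_017253372.1 (minus strand), had similar courses. In selenite libraries of day 1 they averaged 97.3 ± 20.4 and 84.7 ± 13.8 scaled CPM (SD, n = 5), against 894 ± 171 and 647 ± 113 in controls (n = 6). The day 0 means were 131 ± 41.8 and 146 ± 47.3 (n = 3), nearer to the selenite libraries than to the controls of day 1. CC84DRAFT_1159970 overlaps another gene on its own strand, and the treatment of reads in the shared stretch was not given in the sources used here.

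**Figure D2:**
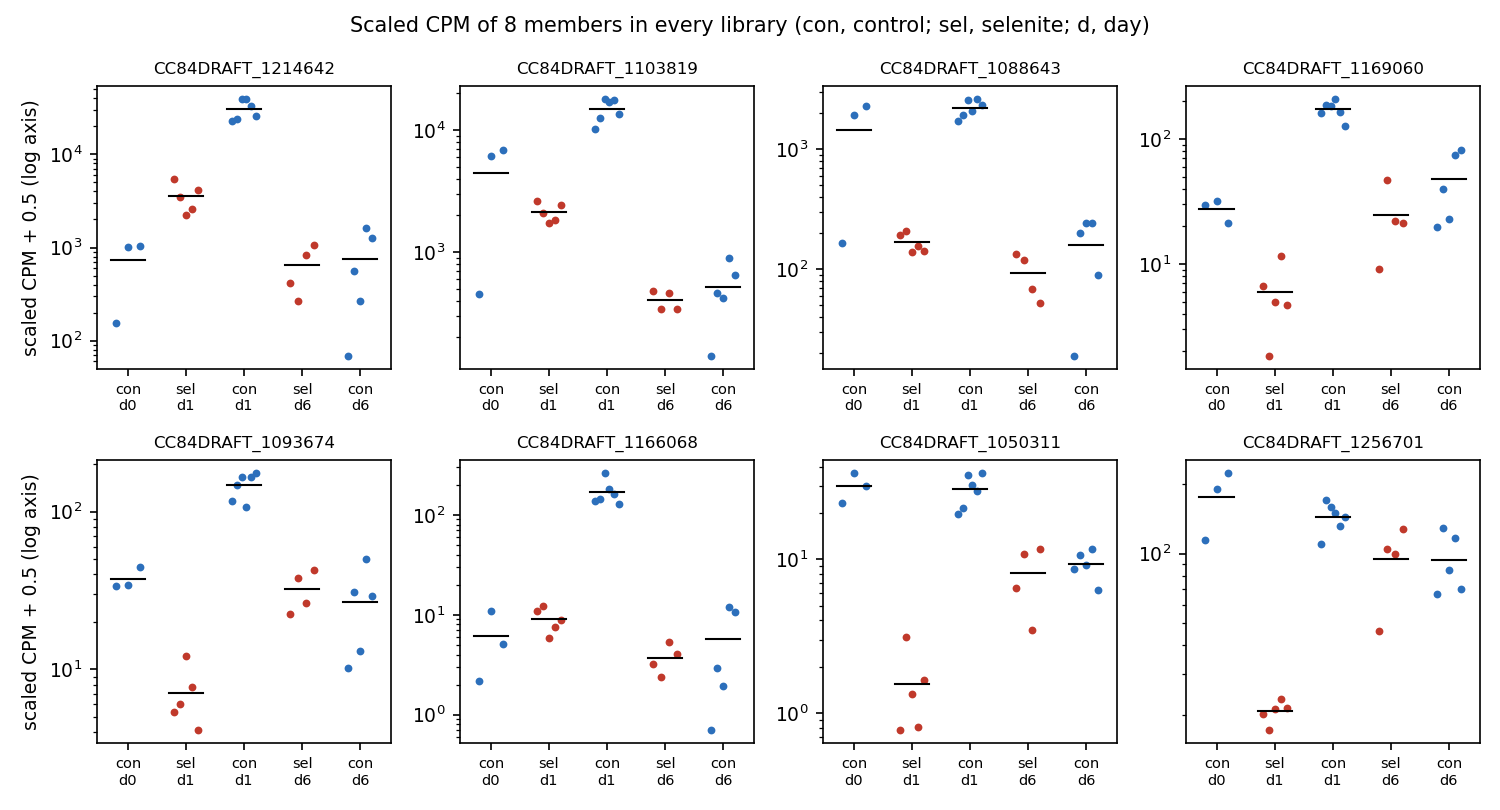
Scaled CPM plus 0.5 of 8 of the genes in every library (log axes), by group along the horizontal axis (control day 0, selenite day 1, control day 1, selenite day 6, control day 6), with a point for each library (red with selenite, blue without) and a line at the group mean. In all 8 panels the selenite points of day 1 lie below the control points of day 1, and selenite and control points of day 6 share a range, but the day 0 points lie near the selenite points in some panels (CC84DRAFT_1166068) and near the control points in others (CC84DRAFT_1050311).

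The 8 genes with the lowest day 1 differences had values of −4.85 to −3.92, and they reached them in different ways. CC84DRAFT_1169060, a gene of 1 exon at 934173 to 934743 of scaffold NW_017253372.1 (minus strand), had the lowest. Its scaled CPM at day 1 were 6.20, 1.35, 4.45, 11.0 and 4.21 with selenite, against 125, 173 and 208 (lowest, median and highest) in controls. Day 0 controls, at 28.9, 31.3 and 20.6, lay between the groups of day 1 and overlapped neither. At day 6 it had 8.66, 46.1, 21.6 and 20.9 in selenite and 19.3, 38.9, 22.2, 74.2 and 81.2 in control libraries, again around the day 0 level. CC84DRAFT_1093674, of 2 exons at 1679655 to 1680299 of scaffold NW_017253365.1 (minus strand), followed the same course. It had 4.89, 5.55, 11.7, 7.23 and 3.63 scaled CPM with selenite at day 1, controls had 106, 156 and 175 (lowest, median and highest), and day 0 controls had 33.2, 33.7 and 44.0. The day 6 values were 21.8, 37.6, 25.9 and 42.1 with selenite and 9.74, 30.4, 12.5, 49.3 and 28.5 without. CC84DRAFT_1091664, of 4 exons at 2336846 to 2338985 of scaffold NW_017253364.1 (minus strand), had the same order at a lower level, with 1.55 ± 0.990 scaled CPM in selenite libraries of day 1 (SD, n = 5), 37.8 ± 8.37 in their controls (n = 6) and 9.48 ± 1.55 at day 0 (n = 3). All 3 genes belong to those that lay on opposite sides of day 0 at day 1.

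CC84DRAFT_1166068, with 3 exons at 1421728 to 1423501 of scaffold NW_017253366.1 (minus strand), differed from controls at day 1 by −4.22, and its selenite libraries stayed near day 0. Day 0 controls had 1.69, 10.5 and 4.66 scaled CPM, and selenite libraries of day 1 had 10.3, 11.8, 5.34, 7.02 and 8.35. The controls of day 1 stood far above both, at 129, 152 and 261 (lowest, median and highest). By day 6 selenite libraries had 2.69, 1.87, 4.79 and 3.57 scaled CPM and the controls 0.204, 2.42, 1.43, 11.5 and 10.3, so the high level in control cultures was seen at day 1 and at no other sampled time. CC84DRAFT_1050311, with 3 exons at 689097 to 690323 of scaffold NW_017253368.1 (minus strand), had nearly the same difference, −4.21, by the opposite route. The selenite libraries of day 1 had 0.275, 2.63, 0.834, 0.314 and 1.15 scaled CPM, below every control. The controls of day 1 had 19.3, 28.5 and 35.9 (lowest, median and highest), in one range with the day 0 values of 22.9, 35.7 and 29.5. By day 6, selenite libraries of CC84DRAFT_1050311 had 6.04, 10.3, 2.98 and 11.1 and controls 8.21, 10.1, 8.70, 11.1 and 5.83, so all selenite libraries were above those of day 1 and all controls were below those of day 1.

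CC84DRAFT_1165132, of 3 exons at 1240125 to 1242898 of scaffold NW_017253365.1 (plus strand), had 37.9, 24.2, 35.6, 29.8 and 28.2 scaled CPM in selenite libraries of day 1 and 306, 504 and 597 in controls (lowest, median and highest). CC84DRAFT_1008245, of 3 exons at 1099279 to 1101152 of scaffold NW_017253368.1 (minus strand), had 4.41, 3.75, 4.78, 1.31 and 1.66 with selenite and 33.4, 53.8 and 75.2 in controls. In both genes the day 6 levels were low without selenite too. CC84DRAFT_1165132 had 46.8, 87.1, 50.1 and 117 in selenite and 18.3, 88.0, 35.4, 98.2 and 87.8 in control libraries of day 6, and 135, 344 and 328 in day 0 controls. CC84DRAFT_1008245 had 2.40, 6.91, 6.42 and 6.99 in selenite and 2.96, 19.9, 5.84, 15.6 and 7.04 in control libraries of day 6, and 28.0, 82.5 and 61.9 in day 0 controls. In each gene every library of day 6 lay below every day 0 control. CC84DRAFT_1008245 overlaps another gene on its own strand, so its reads may be shared with that gene.

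Reads of 2 of the 114 genes were absent from all 5 selenite libraries of day 1. CC84DRAFT_1235906, of 2 exons at 2001287 to 2001859 of scaffold NW_017253361.1 (plus strand), had 42 to 334 reads in the 6 controls, that is 1.44, 8.39 and 13.6 scaled CPM (lowest, median and highest). CC84DRAFT_1168998, of 2 exons at 721530 to 723120 of scaffold NW_017253372.1 (plus strand), had 40 to 108 reads, or 1.86, 3.13 and 4.49 scaled CPM. Against a floor of 3 reads per library, equal to 0.189 scaled CPM on average, they were at least 41.1-fold and at least 16.7-fold lower with selenite. This floor covers counting error only. At day 6, CC84DRAFT_1168998 had 0, 0.499, 0.351 and 1.01 scaled CPM in selenite and 0, 0.440, 1.49, 0.765 and 0.264 in control libraries, each group with 1 library at 0. CC84DRAFT_1235906 had reads in 1 of 4 selenite libraries and in 4 of 5 controls of day 6, with at most 4 and 28 reads. At this depth its day 6 difference of −0.74 rests on very few reads and on the added 0.5.

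Set against day 0, the day 1 difference was made up of low selenite levels in most of the genes and of raised control levels in a smaller number. In selenite libraries 93 of the 114 genes were at least 2-fold below the day 0 mean at day 1, against 21.3% of kept genes, and 3 were at least 2-fold above it, against 29.8%. In the controls of day 1, 50 were at least 2-fold above day 0, against 12.2%, and 7 at least 2-fold below, against 10.5%. The median difference from day 0 was −2.17 with selenite (quartiles −3.12 and −1.39) and 0.73 in controls (−0.23 and 1.74), where the kept genes had medians of 0.14 and −0.02. These counts share the day 1 libraries with the rule and are a description. Scaling by library size alone moved the kept-gene medians at day 1 to −0.75 with selenite and −0.43 in controls, and the medians of the 114 genes to −3.07 and 0.29.

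Of the 114 genes, 64 (56.1%) were at least 2-fold below day 0 with selenite while their controls were less than 2-fold above it. Their medians were −3.08 with selenite and −0.12 in controls, and 20.2% of kept genes met the same condition. Another 29 (25.4%), against 1.05% of kept genes, lay on opposite sides, with selenite at least 2-fold below and controls at least 2-fold above, and medians of −1.61 and 1.48. In the remaining 21 (18.4%), against 11.2%, the controls were at least 2-fold above day 0, with a median of 2.88, and the selenite libraries were not 2-fold below it, with a median of −0.38. By the rule a gene has to fall in at least 1 of these classes. CC84DRAFT_1050311 and CC84DRAFT_1088643 belong to the first class, CC84DRAFT_1169060 and CC84DRAFT_1093674 to the second, and CC84DRAFT_1166068 and CC84DRAFT_1214642 to the third. The 3 genes with selenite levels at least 2-fold above day 0 were CC84DRAFT_1214642 at 2.28, CC84DRAFT_67936 at 1.15 and CC84DRAFT_414438 at 1.12, so they were lower than day 1 controls without being lower than day 0. The farthest below day 0 with selenite were CC84DRAFT_1212428 at −5.54, CC84DRAFT_1062960 at −4.72 and CC84DRAFT_1050311 at −4.28. For the first 2 of these the controls of day 1 were below day 0 too, by −2.45 and −1.76.

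**Figure D3:**
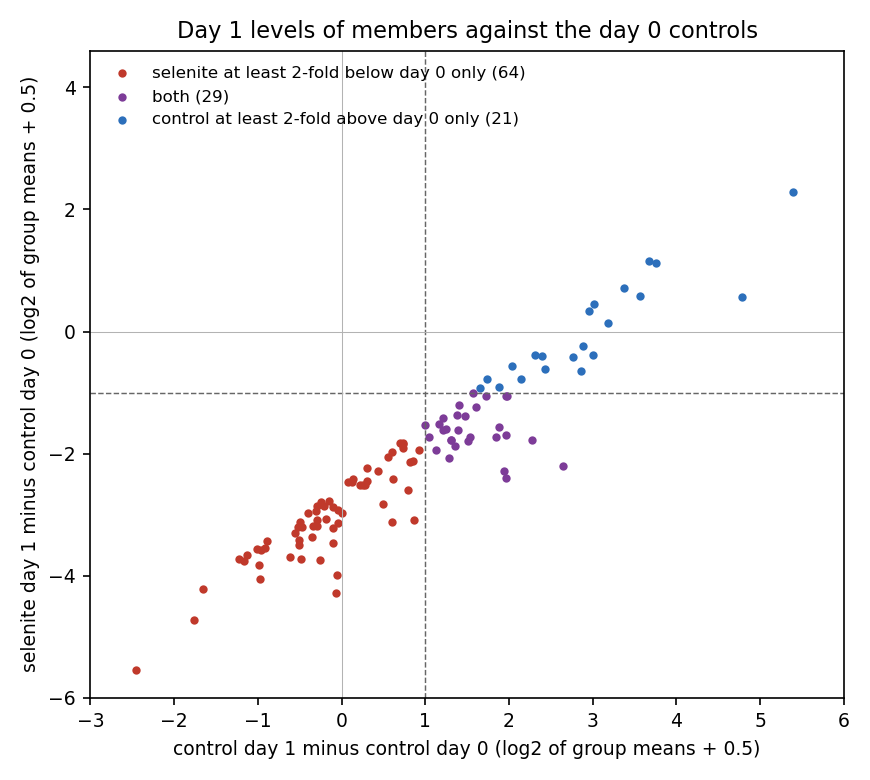
Each point is 1 of the 114 genes, placed by the day 1 control level minus the day 0 level (horizontal axis) and the day 1 selenite level minus the day 0 level (vertical axis), both as differences of log2 group means plus 0.5, with dashed lines at a 2-fold rise in controls and a 2-fold fall with selenite. The rule forces all points below a diagonal, and along it 64 genes (red) are low with selenite only, 29 (purple) are on opposite sides of day 0 and 21 (blue) are raised in controls only.

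Between day 1 and day 6 the conditions came together from both sides on scaled CPM. In selenite libraries 73 of the 114 genes were at least 2-fold higher at day 6 than at day 1, against 13.5% of kept genes, and 5 were at least 2-fold lower, against 20%. In controls 75 were at least 2-fold lower at day 6 than at day 1, against 10.6%, and 1 was at least 2-fold higher, against 16.3%. The median differences between the days were 1.31 with selenite and −1.21 in controls. Both movements were seen in 35 genes, against 1.28% of kept genes. In 37, against 9.74%, the selenite level was at least 2-fold higher and the control within 2-fold of day 1, and in 35, against 5.96%, the control was at least 2-fold lower and the selenite level within 2-fold. Since the rule fixed the difference on both days, these counts describe how the gap closed and test nothing. They depend on the scaling factors, which were 0.511 to 0.65 in selenite libraries of day 1 and 1.209 to 1.51 at day 6. In controls the factors were 0.822 to 0.934 and 1.348 to 1.568. By share of reads, without CC84DRAFT_1214642 and CC84DRAFT_1103819, the genes went from 0.151% to 0.849% with selenite and from 1.82% to 1.07% in controls.

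CC84DRAFT_1256701, of 4 exons at 4731424 to 4732976 of scaffold NW_017253361.1 (plus strand), had the smallest day 6 difference, 0.01, and its gap closed mainly from the selenite side. Selenite libraries of day 1 had 19.7, 16.7, 20.7, 22.9 and 21.0 scaled CPM, controls 109, 147 and 171 (lowest, median and highest), and day 0 controls 115, 190.2 and 223. At day 6 the selenite libraries had 45.4, 104, 99.2 and 127 and the controls 66.5, 129, 84.7, 117 and 69.5, so both were below the upper day 0 libraries and overlapped each other. The other genes nearest to 0 at day 6 were CC84DRAFT_1160176 at 0.03, CC84DRAFT_1168379 at 0.03 and CC84DRAFT_1184844 at 0.04. CC84DRAFT_1184844, of 4 exons at 4770888 to 4771508 of scaffold NW_017253361.1 (plus strand), averaged 5.38 ± 2.42 scaled CPM in selenite and 43.1 ± 10.4 in control libraries of day 1 (SD, n = 5 and n = 6), and 28.2 ± 10.2 and 27.4 ± 6.11 at day 6 (n = 4 and n = 5). CC84DRAFT_1168379, of 2 exons at 1364351 to 1364747 of scaffold NW_017253370.1 (plus strand), was near the lower end of detection, with 0.0688, 2.78, 0, 0 and 0.829 in selenite libraries of day 1 and 4.32, 6.84 and 9.02 in controls (lowest, median and highest). The control side closed the gap in CC84DRAFT_1085398, of 2 exons at 789068 to 790076 of scaffold NW_017253362.1 (plus strand). It had 167, 127, 81.4, 70.4 and 117 scaled CPM with selenite and 440.1, 610.1 and 886 without at day 1 (lowest, median and highest), and 34.6, 51.1, 27.8 and 37.7 with selenite and 12.5, 43.2, 32.6, 36.3 and 29.6 without at day 6. Here both groups of day 6 lay below both groups of day 1.

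CC84DRAFT_1101445, singled out after its values were seen, had the largest increase with selenite between the days, 4.11 on the log2 scale, and was the 1 gene whose controls were at least 2-fold higher at day 6 than at day 1. Its day 0 controls had 4.50, 5.21 and 3.72 scaled CPM. At day 1 the selenite libraries had 0, 0, 0.223, 0 and 0, so reads were found in 1 of the 5, against 1.24, 3.54 and 5.88 (lowest, median and highest) in controls. At day 6 the selenite libraries had 4.14, 2.71, 24.1 and 4.61 and the controls 5.05, 5.18, 2.15, 26.2 and 30.1, and the groups overlapped. The gene lies on NW_017253370.1 (268287 to 268859).

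**Figure D4:**
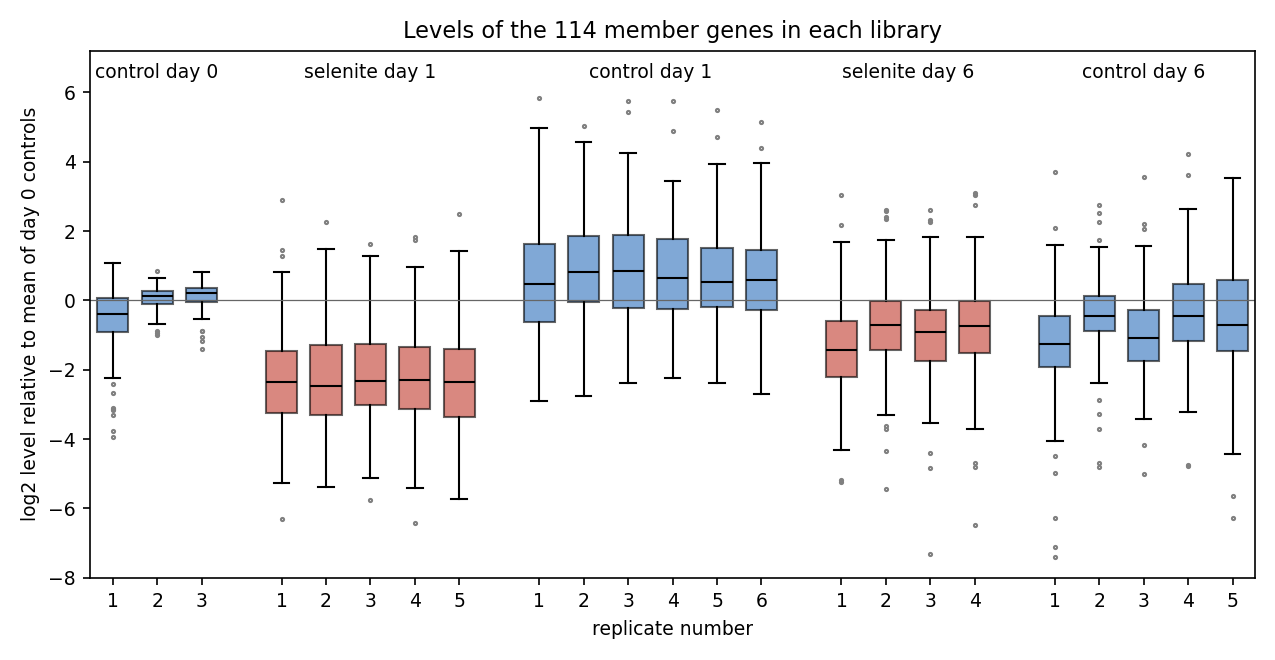
Levels of the 114 genes in each of the 23 libraries, as log2(scaled CPM + 0.5) minus the log2 of the day 0 mean plus 0.5 (vertical axis), with a box for each library (horizontal axis, replicate numbers within groups; red with selenite, blue without) from the lower to the upper quartile, a line at the median, whiskers to the last gene within 1.5 times the box height and dots beyond. The 5 selenite libraries of day 1 have medians of −2.46 to −2.29, below all other libraries, the 6 controls of day 1 have 0.46 to 0.85, and at day 6 the selenite medians (−1.43 to −0.72) and control medians (−1.25 to −0.44) overlap.

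Whether the levels of day 6 were back at those of day 0 was tested in 2 comparisons that share the 3 day 0 controls. The compared libraries are of days 0 and 6, but the spread was estimated over all 23 libraries, those of day 1 included. The rule used the day 6 libraries through the difference between selenite and control, and by holding it within 2-fold it tied the 2 comparisons to each other, so their likeness is no result. With selenite at day 6, 51 of the 114 genes were lower than day 0 controls and 7 were higher by limma, against 18.7% and 23% of the 13676 genes tested. In controls of day 6, 43 were lower and 7 higher, against 10.3% and 10.6%. The median log2 fold change was −0.78 with selenite (quartiles −1.5 and −0.28) and −0.58 in controls (−1.35 and 0.10), against 0.12 and 0.08 over all genes tested. All genes tested are a background of lower level, with a day 0 median of 9.58 scaled CPM against 55.6 for the 114. A background of genes of like level was not examined. The calls over all genes were 3139 higher and 2559 lower with selenite, and 1449 higher and 1408 lower in controls. The split over all genes moved with the scaling, to 2217 higher and 803 lower in controls with library size alone, where the 114 genes had 8 higher and 36 lower. Every selenite library of day 6 lay below every day 0 control for 40 of the 114 genes (20.7% of kept genes) and above for 8 (26.2%). Every control of day 6 lay below for 31 (11.4%) and above for 8 (13.4%). The selenite comparison includes 6 days of culture age as well as selenite.

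The count for controls, 50 of the 114 and 20.9% of all genes tested, depended on single libraries and on the fit. Without control day 0 replicate 2 it was 32 (27 lower and 5 higher), against 8.91% of all genes. Without control day 0 replicate 3 it was 29 (24 lower and 5 higher), against 8.74%. Without control day 6 replicates 1 and 3 it was 39, with 28 lower and 11 higher, against 10.7%. With the spread estimated from the compared groups alone, so without the libraries of day 1, it was 34, with 27 lower and 7 higher, against 8.59% lower and 8.01% higher over all genes. The same fit gave 46 lower and 8 higher with selenite, against 18.3% and 23.6%.

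CC84DRAFT_1212428 and CC84DRAFT_1062960 fell farthest. CC84DRAFT_1212428, a gene of 1 exon at 4810969 to 4811757 of scaffold NW_017253360.1 (plus strand), had 47.1, 40.5, 10.8 and 19.5 scaled CPM in selenite libraries of day 6, against 117, 2316 and 2913 in day 0 controls, a log2 fold change of −5.17 ± 0.77 (SE, limma adjusted p 6.46e-06). The controls of day 6 had 10.1, 63.6, 98.2, 66.6 and 22.7, a log2 fold change of −4.53 ± 0.73 (SE, limma adjusted p 0.000208) against the same day 0 libraries. All 9 libraries of day 6 lay below the day 0 libraries, and day 0 replicate 1 was much lower than the other two. CC84DRAFT_1062960, of 1 exon at 1516148 to 1516807 of scaffold NW_017253368.1 (minus strand), had 27.8, 49.96, 35.2 and 39.4 with selenite at day 6, against 75.4, 1530.2 and 1465 at day 0, with a log2 fold change of −3.88 ± 0.68 (SE, limma adjusted p 6.06e-05). In controls of day 6 it had 6.94, 39.0, 31.6, 36.6 and 20.1, with a log2 fold change of −4.56 ± 0.65 (SE, limma adjusted p 6.6e-05). Here too day 0 replicate 1 held the lowest day 0 value and no library of day 6 reached it. Over the alternatives the selenite value ranged from −6.66 to −4.34 for CC84DRAFT_1212428 and from −5.31 to −3.14 for CC84DRAFT_1062960.

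CC84DRAFT_1088643, next in both comparisons, had a log2 fold change of −3.38 ± 0.71 (SE, limma adjusted p 0.00042) with selenite at day 6 against day 0. In controls it was −2.97 ± 0.68 (SE, limma adjusted p 0.00345), and this call was lost when only the compared groups were fitted (−3.03, limma adjusted p 0.11) and without control day 0 replicate 3 (−2.30, limma adjusted p 0.0522). Day 0 replicate 1, at 165 scaled CPM against 1937 and 2281, overlapped the controls of day 6, and its part in the spread was not tested beyond leaving it out. Without it the selenite comparison called 60 of the 114 genes, against 37.4% of all genes tested, and the control comparison 56, against 22.5%.

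A few genes were higher at day 6 than at day 0. CC84DRAFT_580563, of 6 exons at 1813079 to 1814715 of scaffold NW_017253362.1 (minus strand), had 255, 425, 401 and 569.8 scaled CPM in selenite libraries of day 6, against 112, 78.9 and 60.1 in day 0 controls, a log2 fold change of 2.29 ± 0.37 (SE, limma adjusted p 2.03e-05). Controls of day 6 had 358, 570.4, 349, 1569 and 972, with 2.98 ± 0.35 (SE, limma adjusted p 1.32e-05) as log2 fold change. No library of day 6 overlapped day 0 in either condition. At day 1 its selenite libraries, with 132, 136, 114, 112 and 136, were close to day 0, against 758, 1054 and 1184 (lowest, median and highest) in controls, so the rise seen in controls by day 1 was seen with selenite at day 6. CC84DRAFT_1080175, of 1 exon at 687213 to 688292 of scaffold NW_017253360.1 (minus strand), had 24.2, 68.5, 35.4 and 93.2 with selenite at day 6, against 8.52, 11.996 and 12.3 at day 0, a log2 fold change of 2.11 ± 0.73 (SE, limma adjusted p 0.0231). That call was lost without selenite day 6 replicate 2 (1.95, limma adjusted p 0.0551), without replicate 4 (1.80, limma adjusted p 0.0728) or without control day 0 replicate 1 (1.95, limma adjusted p 0.0732). The controls of day 6, at 1.94, 25.3, 4.99, 56.3 and 69.6, spread over the day 0 range on both sides.

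CC84DRAFT_67936, of 1 exon at 2723434 to 2724367 of scaffold NW_017253360.1 (plus strand), was among the 3 called highest in controls of day 6. It had 1.15, 1.42, 2.56, 7.70 and 4.91 scaled CPM there, against 0, 0.0606 and 0.432 at day 0, which is 45 to 282 reads per library against 0, 2 and 13. The log2 fold change was 2.39 ± 0.50 (SE, limma adjusted p 0.00192), and with day 0 this low its size turned on the pseudocount, with values of 1.78 to 4.50 under the alternatives.

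CC84DRAFT_414438, of 2 exons at 382540 to 384217 of scaffold NW_017253375.1 (plus strand), was the highest in both comparisons, and its place among the 114 rests on 1 library. Its log2 fold changes against day 0 were 3.03 ± 0.69 (SE, limma adjusted p 0.00095) with selenite and 3.30 ± 0.66 (SE, limma adjusted p 0.00132) in controls at day 6. Selenite libraries of day 6 had 39.8, 29.5, 29.0 and 41.6 scaled CPM and the controls 63.6, 27.5, 57.0, 30.1 and 41.8, against 7.83, 3.48 and 1.86 at day 0, with no overlap. At day 1 the selenite libraries had 11.5, 13.3, 8.07, 9.12 and 8.61. The 6 controls of day 1 had 277, 49.7, 21.5, 26.9, 7.74 and 12.2 in replicates 1 to 6, and this was the gene among the 114 whose groups overlapped at day 1. Without control day 1 replicate 1 its day 1 difference was −1.19 in place of −2.64, outside the rule.

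**Figure D5:**
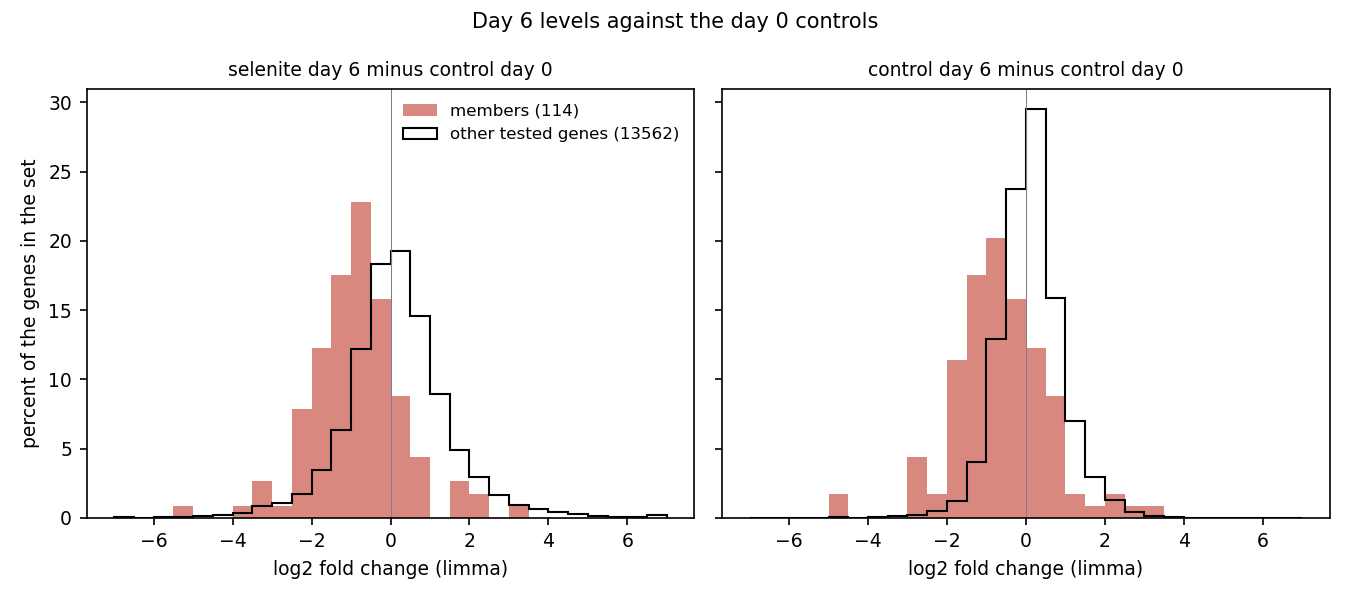
Distribution of limma log2 fold changes of selenite day 6 libraries (left) and control day 6 libraries (right) against day 0 controls, in steps of 0.5 on the horizontal axis, as percent of the 114 genes (red bars) and percent of the other tested genes (black outline) on the vertical axis. The 114 genes are shifted to the negative side in both panels, with medians of −0.78 and −0.58 against 0.12 and 0.08 over all genes tested.

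The 114 genes were spread over 18 of the 33 scaffolds that carry genes with locus tags, with 18 on NW_017253361.1 and 14 on NW_017253360.1, the scaffolds with most genes. They resembled other genes in structure. The median number of exons was 2 in the 114 genes and 2 over all genes with locus tags, and the median exon length was 1200.0 bases against 1300.0. Genes of 1 exon made up 21.9% against 25.9%, and 45.6% against 49.8% lay on the plus strand. Another annotated gene overlapped 20 of the 114 (17.5%), against 14.9% of all. Counting used strand, so reads of the opposite strand were kept apart. Strand does not part the reads where the overlapping gene is on the same strand. This was so for CC84DRAFT_1159970, CC84DRAFT_763662, CC84DRAFT_859913, CC84DRAFT_1008245 and CC84DRAFT_1126845, and for 1 of the 2 genes that overlap CC84DRAFT_491791.

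Neighbouring pairs were few. Of the 228 positions next to one of the 114 genes, 6 (2.63%) held another of them, and the 114 are 0.768% of the genes with locus tags. These were 3 pairs. CC84DRAFT_1168772 and CC84DRAFT_1168773 are short genes of 1 exon on the minus strand of NW_017253371.1 (1221371 to 1221733, and 1222254 to 1222669). Selenite libraries of day 1 had 0, 1.501, 2.78, 0 and 4.59 scaled CPM of CC84DRAFT_1168772, against 8.60, 18.7 and 38.5 (lowest, median and highest) in controls. For CC84DRAFT_1168773 these values were 3.17, 0.1501, 3.50, 0.733 and 2.93 with selenite, against 17.6, 26.4 and 44.6 in controls. The controls of day 1 ranged alike in the pair, with replicate 1 high and replicate 5 low for each gene, and the groups did not overlap. At day 6 CC84DRAFT_1168772 had 2.75, 8.26, 3.76 and 4.23 in selenite and 7.63, 7.56, 13.9, 9.32 and 9.69 in control libraries, and CC84DRAFT_1168773 had 5.22, 17.5, 5.79 and 10.3 in selenite and 9.77, 12.4, 13.6, 11.4 and 12.4 in control libraries.

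The other two pairs are divergent, with their starts facing each other. CC84DRAFT_1079898 and CC84DRAFT_1160176 on NW_017253360.1 (4750008 to 4752237 on the minus strand, 4753223 to 4755426 on the plus strand) had close profiles. Selenite libraries of day 1 averaged 43.8 ± 8.74 and 30.3 ± 7.69 scaled CPM (SD, n = 5), against 264 ± 53.5 and 190.4 ± 44.3 in controls (n = 6). At day 6 the selenite libraries averaged 127 ± 34.8 and 98.1 ± 27.9 (n = 4), the controls 139 ± 35.8 and 96.3 ± 33.5 (n = 5), and the day 0 controls 349.9 ± 71.4 and 235 ± 40.4 (n = 3). In both genes the selenite libraries of day 1 were the lowest group and day 0 the highest. CC84DRAFT_1111773 and CC84DRAFT_1111777 on NW_017253361.1 (2043811 to 2046850 on the minus strand, 2047012 to 2048533 on the plus strand) averaged 18.4 ± 4.38 and 9.41 ± 4.75 with selenite at day 1, against 129 ± 32.2 and 101 ± 22.7 in controls. Here the day 1 controls were the highest group, above day 0 means of 34.7 ± 9.40 and 41.1 ± 9.93. CC84DRAFT_1111777 overlaps a gene on the opposite strand.

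Genes next to the 114 were also often lower with selenite at day 1. Of 204 neighbours that are not among the 114, 67 (32.8%) were at least 2-fold lower, against 18.7% of kept genes, and their median day 1 difference was −0.40 against 0.13. By orientation, 25 of 68 divergent neighbours (36.8%) were at least 2-fold lower, against 20.4% in other divergent pairs. The counts were 28 of 83 (33.7% against 16.8%) for neighbours on the same strand and 15 of 55 (27.3% against 18.1%) for convergent ones, where a gene next to 2 of the 114 can count under 2 orientations. These shares come from the comparison that chose the 114 genes and are a description.

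The authors' deposited table for day 1 holds all 114 genes, each lower with selenite at an adjusted p under 0.05, as are 30.4% of its genes. Its log2 fold changes had a median of −3.10 and ran from −10.41, for CC84DRAFT_1235906, to −2.62. The authors' deposited table for day 6 holds 113 of them, all but CC84DRAFT_1235906, with a median of −0.33. At adjusted p under 0.05 the authors' deposited table has 10 of them lower, where 23.1% of its genes are, and 2 higher, CC84DRAFT_1193470 and CC84DRAFT_962084, where 24.5% are. CC84DRAFT_1193470, of 4 exons at 1661386 to 1662477 of scaffold NW_017253361.1 (plus strand), had 118, 241, 192 and 306 scaled CPM in selenite libraries of day 6 and 83.2, 136, 72.5, 145 and 111 in controls, and CC84DRAFT_962084, of 4 exons at 1759711 to 1760672 of scaffold NW_017253367.1 (plus strand), had 7.56, 12.2, 17.9 and 16.3 in selenite libraries and 8.80, 5.48, 6.69, 4.59 and 7.48 in controls. Both overlap narrowly between the conditions and lie at the upper edge of the day 6 window. In the authors' deposited time-course table of 4611 genes 90 of the 114 appear, in 4 of its clusters, with 40 in cluster 4, 27 in cluster 6, 19 in cluster 7 and 4 in cluster 8. In the whole table these clusters hold 599 genes (cluster 4), 417 (cluster 6), 410 (cluster 7) and 398 (cluster 8) of 4611. The counts are a description, since the table and the rule come from the same study.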

How the data were processed

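RNA sequencing reads per gene were analysed in 23 libraries of whole cultures. The submitters' processing notes name Subread 2.0.6, STAR 2.7.1a, Trimmomatic 0.39, edgeR 3.36.0 and R 4.1.0. Counting by the authors was with featureCounts 2.0.6 and strand option 2, per the file headers. A genome build was not given in the sources used here, nor the other settings. In the authors' deposited CPM table, a gene's reads are scaled by all reads in genes of that library. It gave whole reads for 100% of 348772 values within 0.001 reads. Of the deposited count table, only positions (counted from 1) and exon lengths were used here. The authors' deposited tables of comparisons hold log2 fold changes, F and R-squared scores, p-values and cluster numbers, per the file headers, which name no test for days 1 and 6. The RefSeq table of assembly Parsp1 matched all 114 genes, and its symbols are the locus tags. 46 other columns of values per library were not used.

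CPM were divided by median-ratio factors, and differences are of log2 group means with a pseudocount of 0.5. This scale understates the change of low genes. Tests used limma 3.58.1 (R 4.3.3) with a variance trend, on log2(scaled CPM + 0.5), with 5 group means over all 23 libraries and no block, for the 13676 genes that filterByExpr of edgeR 4.0.16 kept (minimum count 10, minimum total count 15). The tests were two-sided, with Benjamini-Hochberg adjustment over those genes and a threshold of 0.05. The script for the fits was tested on simulated data. The count test of edgeR on the recovered reads called 2599 genes in controls and 5371 with selenite at day 6 against day 0, and limma called 2857 and 5698. Alternatives also covered TMM factors (0.557 to 1.61), library size alone, other pseudocounts, no filter, DESeq2 1.42.0 on recovered reads, a fit of the compared groups alone, a block and left-out libraries.

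The genes and lists were chosen with earlier results of these data known. Genes named are the 8 with the lowest day 1 difference, the 8 highest in day 1 controls, the 3 called highest and lowest in each comparison with day 0, neighbouring pairs, those at the limits of the rule and the 4 nearest to 0 at day 6. CC84DRAFT_1168998, without reads in selenite libraries of day 1, and CC84DRAFT_1101445 were described outside these criteria. Gene lists by product name and searches of protein and promoter sequences were planned and not run, since the reference used here holds neither, so reads shared between near-identical genes could not be looked for. Replicates differed by 29.9 to 619.9 times the counting noise per gene (chi-square over genes), so no library was a copy of another. Python 3.11.15 with numpy 2.4.6, pandas 2.3.3 and matplotlib 3.10.9 was used for the rest.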

Additional observations from a re-analysis of the deposited data

Results flagged for a closer look

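The 36 genes of the 114 named by the criteria above were searched for outlying libraries, as were the share of reads and the median level of all 114. CC84DRAFT_1168998 and CC84DRAFT_1101445, also described above, were not among the 36. Gene levels were compared on the log2 scale. Of 151 groups of 4 to 6 libraries, 5 held a library far from the rest of its group. Chance gives about 1 in 20 such groups. Selenite day 6 replicate 1 was the low library in 3 of them. It had 2.4 scaled CPM of CC84DRAFT_1008245, where the other 3 had 6.42 to 6.99. It had 14.5 of CC84DRAFT_1111777, against 32.0 to 33.8 in the other 3, and 57.1 of CC84DRAFT_1160176, against 104 to 117. The same library was the lowest of its group for 68 of the 114 genes, and 29.0% of kept genes. Control day 1 replicate 1 had 598 scaled CPM of CC84DRAFT_1180694, and the other 5 had 947 to 1245. Selenite day 6 replicate 4 had 0.101 scaled CPM of CC84DRAFT_1235906, which is 4 reads, and the other 3 had none.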

How the results depend on the processing

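Under the alternatives, none of the day 1 differences of 36 named genes changed direction. Nor did any of the 12 log2 fold changes against day 0 of genes named for their calls. The choice of these genes, by the rule and by the largest fold changes, largely fixed both outcomes, and nothing is read from them. With library size alone the rule took 258 genes, 107 of them among the 114, and the class with raised controls only had 10 of the 114 in place of 21. Scaling by library size alone shifted the kept-gene median of the day 1 difference by −0.45, from 0.13 to −0.32. TMM factors shifted it by −0.15, to −0.02. TMM factors gave 155 genes (112 shared), pseudocounts of 0.1 and 1 gave 153 (107 shared) and 92 (90 shared), and leaving out 1 library gave 104 to 126. Without control day 6 replicates 1 and 3 it was 101, with 87 shared. Control day 6 against day 0 called 50 of the 114 genes and 2857 of all genes. Without those 2 libraries 1459 of all genes were called, without control day 0 replicate 2 there were 32 and 1218, without replicate 3 there were 29 and 1195, with the compared groups alone 34 and 2270 (lower calls among the 114 were 27 in place of 43), and over all left-out libraries the ranges were 29 to 56 and 1195 to 3077. For selenite day 6 against day 0 the ranges were 46 to 60 (58 with all libraries) and 4662 to 5501 (5698). When a library was left out the classes held 60 to 65 genes low with selenite only, 26 to 31 on opposite sides and 20 to 24 raised in controls only. Genes in neighbouring pairs numbered 6, or 12 with up to 1 gene between them and 2 on the same strand only.

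On the recovered reads edgeR called 50 of the 114 genes in controls and 56 with selenite (2599 and 5371 of all genes), and DESeq2 52 and 59 (3316 and 5836). With the replicate block, control day 6 against day 0 gave 55 of the 114 genes and 3437 of all genes, and selenite day 6 against day 0 gave 62 and 5716. The correlations of same-numbered libraries were 0.33, 0.13 and −0.21 for the controls and 0.06, 0 and −0.04 for selenite. So few values cannot show whether the numbers pair the libraries. Of the day 1 differences of 36 named genes, 16 of 1044 alternative values moved by more than the spread between replicates, 15 of them with library size alone, and the other for CC84DRAFT_1235906 with a pseudocount of 0.1 (−6.30). The cause of these movements was not tested. Levels with few reads, as in the genes without reads in selenite libraries of day 1, are limited by depth.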
